A study of Camelina sativa with 12 samples.

Results

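Csa14g006260 and Csa17g008270 are the 2 *C. sativa* genes that the study annotated as ACC oxidase 4, and they are 2 of the 89418 genes in its count table. They were chosen by the study on their lower expression in *rolD::acdS* than in control shoots, so their difference between those groups is described here without a test. The study's text also lists Csa14g006260 once as EBF2, among genes of ethylene signalling. Its annotation of that gene reads ethylene-forming enzyme, ACO 4, which is the name followed here. *Camelina sativa* is an oilseed crucifer with a hexaploid genome, in which most genes occur as homeologues on different chromosomes. ACC oxidase catalyses the last step of ethylene synthesis, in which 1-aminocyclopropane-1-carboxylate (ACC) made by ACC synthase is converted to ethylene. Ethylene is formed in plants under stress and is perceived by receptors whose signal ends in ethylene response factors, a family of transcription factors. ACC deaminase, encoded by the bacterial gene *acdS*, breaks ACC down and so competes with ACC oxidase for the same substrate.

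The 12 libraries came from shoots of 28-day-old plants of cultivar DH55, all of which had received NaCl at 15 dS m-1 (192 mM) for 21 days. No unsalted library was among them. The plant age and salt time are those the study gives for the RNA. Its general growth protocol starts salt at a later plant age, and the sources used here do not settle which applies. There were 3 libraries in each of 4 groups, namely the untreated control, plants whose soil received the ACC deaminase-producing bacterium *Pseudomonas migulae* 8R6, *35S::acdS* plants and *rolD::acdS* plants. Both transgenic groups carry *acdS* from *Pseudomonas* sp. UW4, under the constitutive CaMV 35S promoter in *35S::acdS* and under the *rolD* promoter of *Agrobacterium rhizogenes* in *rolD::acdS*. The *rolD* promoter is used for expression in roots but is not entirely confined to them. The transgenic plants came from individual single-copy lines, and how many lines gave the libraries of a group is not given in the sources used here. Control and transgenic plants received buffer in place of bacteria. The RNA was from whole shoots, so fewer cells with a transcript and less transcript per cell cannot be told apart.

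Libraries held between 10520627 and 23587748 counts, and 56932 genes with at least 0.5 CPM (counts scaled to a fixed library size) in at least 3 libraries were tested. Both ACC oxidase 4 genes passed this filter. The study reports that photosynthesis genes are expressed in roots too, so counts of them cannot by themselves tell shoot from root. All 4 photosynthesis genes looked at for the shoot label had counts in 12 of 12 libraries. Their summed level was 38.8 to 52.5 CPM in the control, 40.1 to 59.0 CPM in *35S::acdS*, 55.7 to 73.5 CPM in *rolD::acdS* and 116 to 135 CPM with *P. migulae* 8R6. The study named these 4 genes for their higher expression with *P. migulae* 8R6, so the height of the sum in that group follows from their choice, and its part in the ACC oxidase values was not tested.

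Csa14g006260 had 1106, 920 and 1630 counts in the control libraries, or 74.9, 58.1 and 67.7 CPM after TMM normalization for library size and composition. With *P. migulae* 8R6 it had 55.5, 59.3 and 25.4 CPM, and in *35S::acdS* 35.1, 67.7 and 58.1 CPM. In *rolD::acdS* it had 39.6, 31.3 and 30.6 CPM, from 926, 343 and 311 counts. All 3 *rolD::acdS* libraries lay below all 3 control libraries. The group with bacteria and the *35S::acdS* group each held 1 library as low as those of *rolD::acdS*, namely replicate 3 with *P. migulae* 8R6, the lowest of the 12, and replicate 1 of *35S::acdS*.

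Csa17g008270 had 55.3, 50.7 and 43.0 CPM in the control, from 816, 803 and 1034 counts. It had 33.0, 45.9 and 15.6 CPM with *P. migulae* 8R6 and 20.9, 45.7 and 39.3 CPM in *35S::acdS*. The *rolD::acdS* libraries had 23.0, 21.4 and 24.7 CPM, from 537, 234 and 251 counts. The pattern was that of Csa14g006260, with *rolD::acdS* below the control throughout and the same 2 libraries, replicate 3 with bacteria and replicate 1 of *35S::acdS*, at or below the *rolD::acdS* range. With 234 to 1630 counts a library, counting error was at most 6.54% of a value for either gene.

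**Figure D1:**
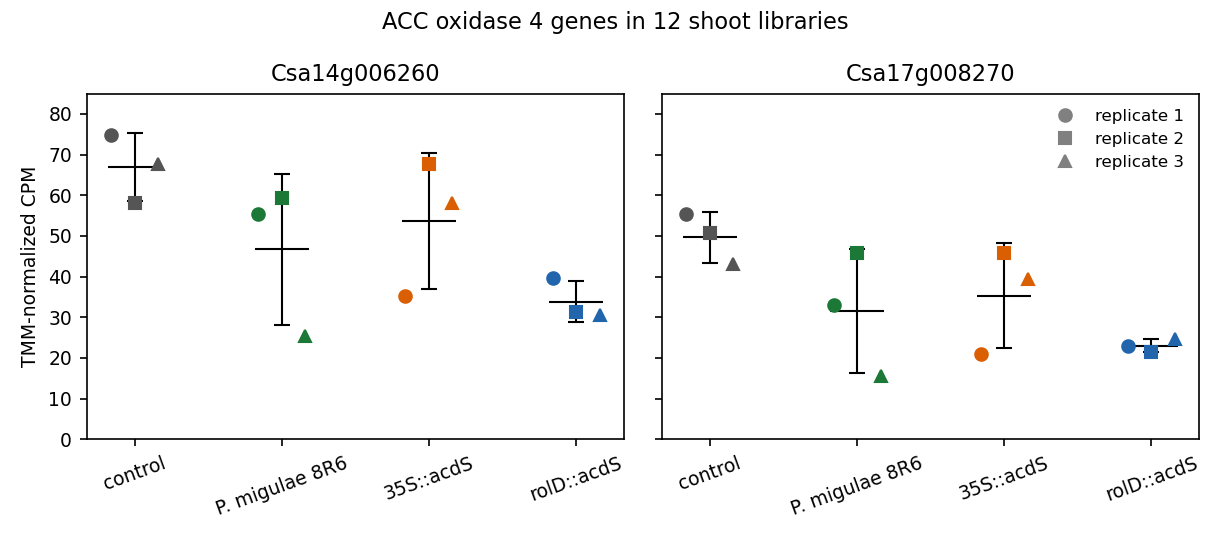
TMM-normalized CPM of Csa14g006260 (left) and Csa17g008270 (right) in each of the 12 libraries, with a horizontal line for the group mean, bars for the SD (n = 3) and a symbol for each replicate number. The *rolD::acdS* points sit below the control points for both genes, while *P. migulae* 8R6 and *35S::acdS* each have 1 low library, at 25.4 and 35.1 CPM for Csa14g006260.

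Both genes had the same order of group means. Csa14g006260 averaged 66.9 ± 8.44 CPM in the control, 53.6 ± 16.7 CPM in *35S::acdS*, 46.7 ± 18.6 CPM with *P. migulae* 8R6 and 33.8 ± 5.01 CPM in *rolD::acdS* (SD, n = 3 each). Csa17g008270 averaged 49.6 ± 6.22, 35.3 ± 12.9, 31.5 ± 15.2 and 23.0 ± 1.68 CPM in the same order. Neighbouring groups in this order overlapped for both genes, so the control did not stand beyond the spread of *35S::acdS*, nor *35S::acdS* beyond that of bacteria-treated plants, nor these beyond *rolD::acdS*. Levels of different genes depend on transcript length, and the lengths were not used here.

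The spread between libraries differed among the groups. The coefficient of variation for Csa14g006260 was 12.6% in the control and 14.8% in *rolD::acdS*, against 39.7% with *P. migulae* 8R6 and 31.2% in *35S::acdS*. That of Csa17g008270 was 12.5%, 7.29%, 48.2% and 36.4% in the same groups. Choosing genes on a difference between the control and *rolD::acdS* favours genes with little spread in those groups. Part of the contrast in spread can thus follow from the choice, and it was not tested. Both genes varied more between replicates than most genes did. The biological coefficient of variation estimated by edgeR was 0.259 for Csa14g006260 and 0.288 for Csa17g008270, above 84.4% and 88.1% of the tested genes, for which the median was 0.151.

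Only the comparison of bacteria-treated with *35S::acdS* plants had neither of its groups among the libraries on which the genes were selected. It asks whether ACC deaminase from soil bacteria and from a constitutive transgene were accompanied by different levels of ACC oxidase transcript. The groups also differ in transformation and in the presence of bacteria, which the study describes as having other growth-promoting mechanisms. These differences cannot be told apart from the source of ACC deaminase. Csa14g006260 was at a log2 fold change of -0.20 ± 0.29 (SE) and Csa17g008270 at -0.17 ± 0.33, *P. migulae* 8R6 minus *35S::acdS*. The 95% intervals ran from -0.83 to 0.43 and from -0.89 to 0.55, so that a change of nearly 2-fold downward is within them. The spread behind them was estimated over all 12 libraries, including the less variable control and *rolD::acdS* libraries used in the selection. The intervals may therefore be too narrow for the groups compared, and they do not exclude a 2-fold change. By edgeR's quasi-likelihood test neither gene passed (adjusted p = 0.732 and 0.806, Benjamini-Hochberg over the tested genes). Fitted on the 6 libraries of this comparison alone, they were at -0.19 and -0.16 (quasi-likelihood test, adjusted p = 0.788 and 0.853). The groups overlapped for both genes, whereas 25.2% of tested genes had groups that did not overlap in either direction.

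Differential expression in that comparison required an adjusted p of 0.05 or less and a change of more than 2-fold, and 29 genes (0.0509% of those tested) met it. Fitted with replicate number as a block, 222 genes met it. The ACC oxidase 4 genes were then at -0.24 and -0.20 and still not among them (quasi-likelihood test, adjusted p = 0.675 and 0.754). The sign of both differences turned without replicate 3 of *P. migulae* 8R6 (0.10 and 0.16) and without replicate 2 of *35S::acdS* (0.0067 and 0.067).

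Against the control, both genes were lowest in *rolD::acdS*, with log2 fold changes of -0.98 ± 0.30 for Csa14g006260 and -1.11 ± 0.34 for Csa17g008270 (SE). These values are those of the selecting comparison. They lie on either side of the 2-fold limit, with Csa14g006260 just short of it and Csa17g008270 just beyond it. Of all tested genes, 7.23% had every *rolD::acdS* library below every control library, as both ACC oxidase 4 genes did, and nothing is read from that here. The quasi-likelihood test called 0 genes (0%) in this comparison, with 4755 genes (8.35%) at an unadjusted p under 0.05, while DESeq2 called 164 (0.288%).

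Bacteria-treated plants were at -0.52 ± 0.29 for Csa14g006260 and -0.66 ± 0.33 for Csa17g008270 relative to the control. Without replicate 3 with bacteria these were -0.22 and -0.34, and without replicate 2 Csa17g008270 was at -1.03. The *35S::acdS* line was at -0.32 ± 0.29 and -0.49 ± 0.33. Without its replicate 1 these were -0.10 and -0.23, and without replicate 2 Csa14g006260 was at -0.53. Groups overlapped for both genes in both comparisons, where 7.03% and 7.32% of tested genes had all libraries below those of the control. The quasi-likelihood test called 1 gene (0.00176%) with bacteria and 0 (0%) in *35S::acdS*. At an unadjusted p under 0.05 in that test there were 5475 genes (9.62%) with bacteria and 4421 (7.77%) in *35S::acdS*. DESeq2 called 210 (0.369%) and 19 (0.0334%). These comparisons and that of *rolD::acdS* share the same control libraries, and no test was made of the difference between them.

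Set against the other ACC deaminase treatments, *rolD::acdS* was at -0.66 ± 0.29 and -0.62 ± 0.34 relative to *35S::acdS* for Csa14g006260 and Csa17g008270. Without replicate 2 of *35S::acdS* Csa17g008270 was at -0.38 there. Relative to *P. migulae* 8R6 it was at -0.46 ± 0.29 and -0.45 ± 0.33, which became -0.25 and -0.076 without bacteria replicate 2 and -0.76 and -0.78 without bacteria replicate 3. The libraries overlapped for both genes in both comparisons, in which 10% and 8.56% of tested genes had *rolD::acdS* below throughout. Since they contain *rolD::acdS* libraries of the selection, no p is given for the ACC oxidase 4 genes. Among all tested genes 0 (0%) were called against *35S::acdS*, with 7320 (12.9%) at an unadjusted p under 0.05 and 107 (0.188%) called by DESeq2, and 43 (0.0755%) were called against *P. migulae* 8R6.

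**Figure D2:**
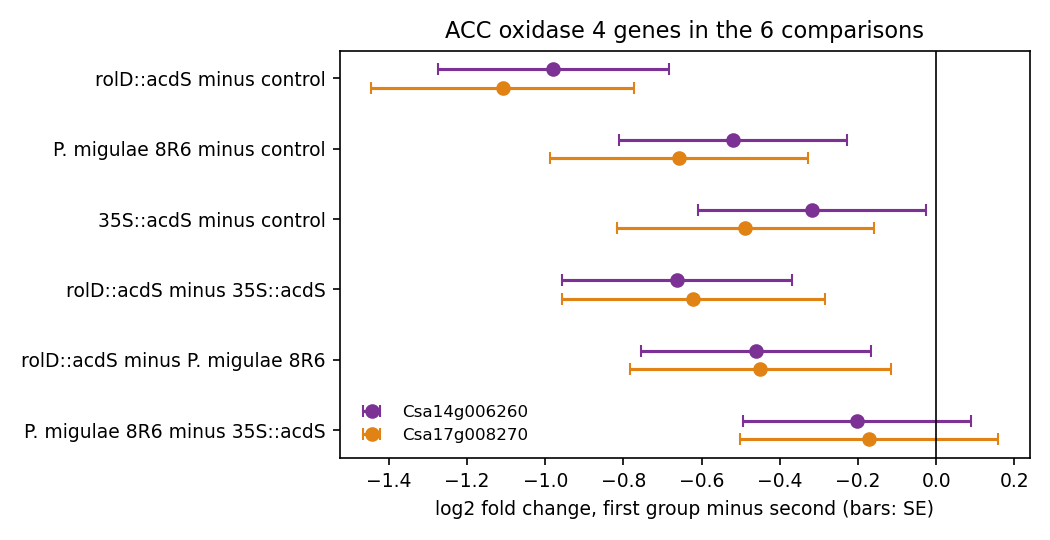
Log2 fold changes (horizontal axis, first group minus second) of Csa14g006260 and Csa17g008270 in the 6 comparisons, with bars for the SE from the edgeR fit of all 12 libraries. Both genes lie below 0 in each comparison, from -0.98 and -1.11 for *rolD::acdS* minus control to -0.20 and -0.17 for *P. migulae* 8R6 minus *35S::acdS*.

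The balance between the 2 homeologues was compared across libraries, since gene length and library size cancel in it. Whether the hexaploid genome holds another ACC oxidase 4 copy was not settled here, so the shares are of these 2 genes only. Csa14g006260 took 57.5%, 53.4% and 61.2% of the counts of both genes in the control libraries and 62.7%, 56.4% and 61.9% with *P. migulae* 8R6. It took 62.7%, 59.7% and 59.6% in *35S::acdS* and 63.3%, 59.4% and 55.3% in *rolD::acdS*. It was thus the more counted gene in every library, and the group means lay close together at 57.4 ± 3.90%, 60.3 ± 3.45%, 60.7 ± 1.74% and 59.4 ± 3.98% (SD, n = 3 each). The log2 ratio of the counts did not differ over the 4 groups beyond the spread between libraries (exact permutation test of the F statistic over 369600 assignments, p = 0.651).

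Between control libraries the balance differed by more than counting error. The share had a 95% Wilson interval of 51.0% to 55.7% in control replicate 2 and of 59.3% to 63.0% in control replicate 3, whereas the intervals of the 3 *35S::acdS* libraries overlapped. These intervals cover counting error only and leave out differences between plants. Reads that fit both homeologues could be assigned to either, and how the counting treated them is not given in the sources used here. The choice of both genes as lower in *rolD::acdS* also leaves less room for their ratio to differ between that line and the control.

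**Figure D3:**
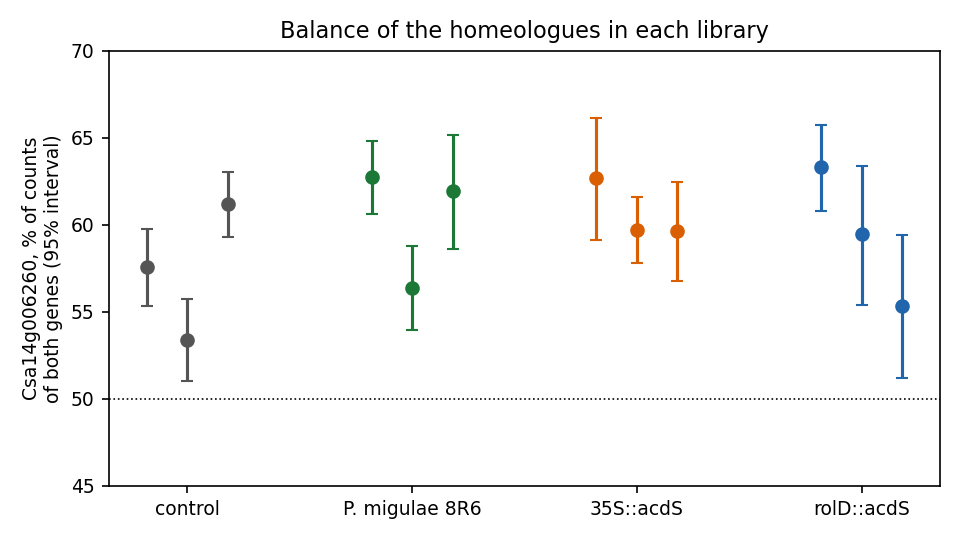
Share of Csa14g006260 in the counts of both ACC oxidase 4 genes (vertical axis, percent, starting at 45) in each library, in order of replicate number within each group, with 95% Wilson intervals and a dotted line at equal counts. All 12 libraries lie above the line, between 53.4% and 63.3%, and the groups overlap.

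The genes also moved together between replicates of a group. Replicate 3 with *P. migulae* 8R6 was 0.78 below its group mean of log2 CPM for Csa14g006260 and 0.87 below for Csa17g008270. Replicate 1 of *35S::acdS* was 0.56 and 0.68 below. Over the 12 deviations Pearson's r was 0.919 (p = 0.0216) and Spearman's rho 0.811 (p = 0.0378), by exact permutation of replicates within groups, and p = 0.0378 for both after Benjamini-Hochberg adjustment over these 2 measures. This was the only relation of this kind computed. It rested on the 2 low libraries, since without them r was 0.290 (exact permutation p = 0.417, 10 libraries), and without either of them alone r was 0.811 or 0.883 (exact permutation p = 0.0648 for each).

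**Figure D4:**
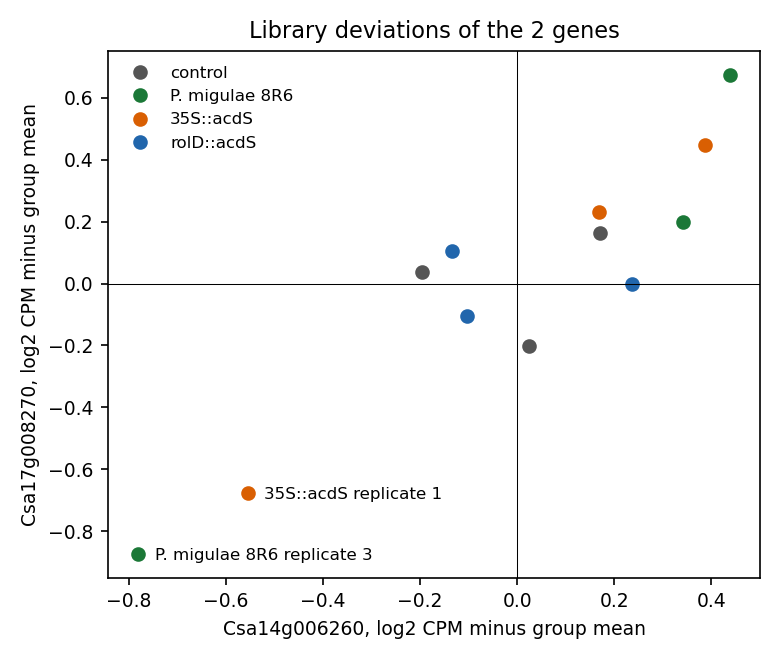
Deviation of each library from its group mean of log2 CPM for Csa14g006260 (horizontal axis) and Csa17g008270 (vertical axis), coloured by group. Replicate 3 of *P. migulae* 8R6 and replicate 1 of *35S::acdS* lie apart at the lower left, and the other 10 libraries deviate by up to 0.44 for Csa14g006260 and up to 0.67 for Csa17g008270.

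The other ethylene genes that the study names were compared as a list of 23, of which all passed the filter. The study picked these genes from the same libraries, so their direction, unadjusted p, separation of groups and calls are no independent evidence. ACC synthase, which makes the substrate of ACC oxidase and is known as the regulated step of ethylene synthesis, was represented by 3 *ACS7* and 2 *ACS2* genes. The *ACS2* gene Csa03g001750 had 10.2, 9.66 and 24.6 CPM in the control and 5.73, 0.91 and 2.46 CPM in *rolD::acdS*. It had 11.6, 9.04 and 0.63 CPM with *P. migulae* 8R6 and 7.15, 11.8 and 4.76 CPM in *35S::acdS*. Its lowest library was replicate 3 with bacteria, the same that was lowest for both ACC oxidase 4 genes, and the homeologue Csa17g001950 was also lowest there, at 0.44 CPM.

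The *ACS7* genes were counted rarely. Csa12g025860 had 23 to 165 counts in a control library and 1 to 4 in a *rolD::acdS* library. Csa11g018190 had 24 to 89 and 0 to 3, and Csa10g016710 had 19 to 75 and 0 to 3. All 5 ACC synthase genes had every *rolD::acdS* library below every control library, as had 7.23% of tested genes. The quasi-likelihood test called 0 of the 5 (lowest adjusted p = 0.338, edgeR), as it called 0% of tested genes, and all 5 had an unadjusted p under 0.05, against 8.35% of tested genes. DESeq2 called 2 of them lower, Csa11g018190 and Csa12g025860, against 0.288% of tested genes. The study chose these genes as lower in *rolD::acdS*, so such shares follow from the choice and are described only. Against the control, 0 of 5 were below throughout with *P. migulae* 8R6 and 2 of 5 in *35S::acdS*, beside 7.03% and 7.32% of tested genes.

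Homocysteine S-methyltransferase 3 (*HMT3*, Csa01g026000) forms methionine, from which S-adenosyl methionine and then ACC are made. It was at -0.21 ± 0.53 in *rolD::acdS*, 0.40 ± 0.52 with *P. migulae* 8R6 and -1.33 ± 0.55 in *35S::acdS* relative to the control. It passed the quasi-likelihood test in none of these 3 comparisons (adjusted p from 0.636 to 0.953). Every *35S::acdS* library lay below every control library, as for 7.32% of tested genes. Its largest difference was 1.74 for *P. migulae* 8R6 minus *35S::acdS*, where the groups overlapped (quasi-likelihood test, adjusted p = 0.121).

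Of the 17 ethylene response factor genes, 15 were below the control in *rolD::acdS*, 17 with *P. migulae* 8R6 and 15 in *35S::acdS*, with median log2 fold changes of -1.14, -0.93 and -0.90. None passed the quasi-likelihood test against the control, where the lowest adjusted p were 0.346, 0.136 and 0.608 in the same order and 13, 12 and 9 genes had an unadjusted p under 0.05, beside 8.35%, 9.62% and 7.77% of all tested genes. DESeq2 called 1, 5 and 1 of them, all lower than the control, beside 0.288%, 0.369% and 0.0334% of tested genes, and gave 3 of the 17 no adjusted p with bacteria. Since the study picked these genes from these libraries, their shares are described only and do not show enrichment. The 3 *ERF4* genes, which code for repressors of transcription in Arabidopsis, were also below the control in each of the other groups. Their differences were smallest in *rolD::acdS*, the group in which those of ACC oxidase 4 were largest. The study named Csa01g017750 for *P. migulae* 8R6, and Csa15g019690 and Csa19g021900 for *35S::acdS*, but ACC oxidase 4 for *rolD::acdS*. This opposite order can thus follow from the choice of genes, and the gaps between groups were not tested. In *rolD::acdS* Csa01g017750 was at -0.75 ± 0.20, Csa15g019690 at -0.80 ± 0.27 and Csa19g021900 at -0.74 ± 0.26. Relative to the control they were at -0.93, -0.93 and -0.80 with bacteria and at -0.89, -1.18 and -1.32 in *35S::acdS*.

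The *RAP2.6* genes, named for a stress-responsive factor of Arabidopsis, were the 2 response factor genes above the control in *rolD::acdS*, at 0.61 ± 0.34 for Csa03g046520 and 0.70 ± 0.38 for Csa17g069360, without passing the test. Csa03g046520 had 85.3, 100.1 and 32.8 CPM there, 53.1, 36.3 and 53.8 CPM in the control and 15.2, 7.87 and 13.6 CPM with *P. migulae* 8R6. It was the only gene of the 23 called by the quasi-likelihood test in any comparison, at 2.57 ± 0.37 (log2, SE) for *rolD::acdS* minus *P. migulae* 8R6, and the call was lost in at least 6 of the 12 fits without 1 library. The study named it for its level in these *P. migulae* 8R6 libraries, so no p is given. Over the whole list the median log2 fold change against the control was -1.40 in *rolD::acdS*, -1.08 with *P. migulae* 8R6 and -1.08 in *35S::acdS*, beside medians of 0.0076, 0.0029 and 0.0019 for all tested genes. Between *P. migulae* 8R6 and *35S::acdS* the list had a median of 0.04 and 0 genes that passed, with 5 at an unadjusted p under 0.05, a share near the 20.7% of all tested genes, and 3 called lower by DESeq2, which called 1.75% of all tested genes.

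**Figure D5:**
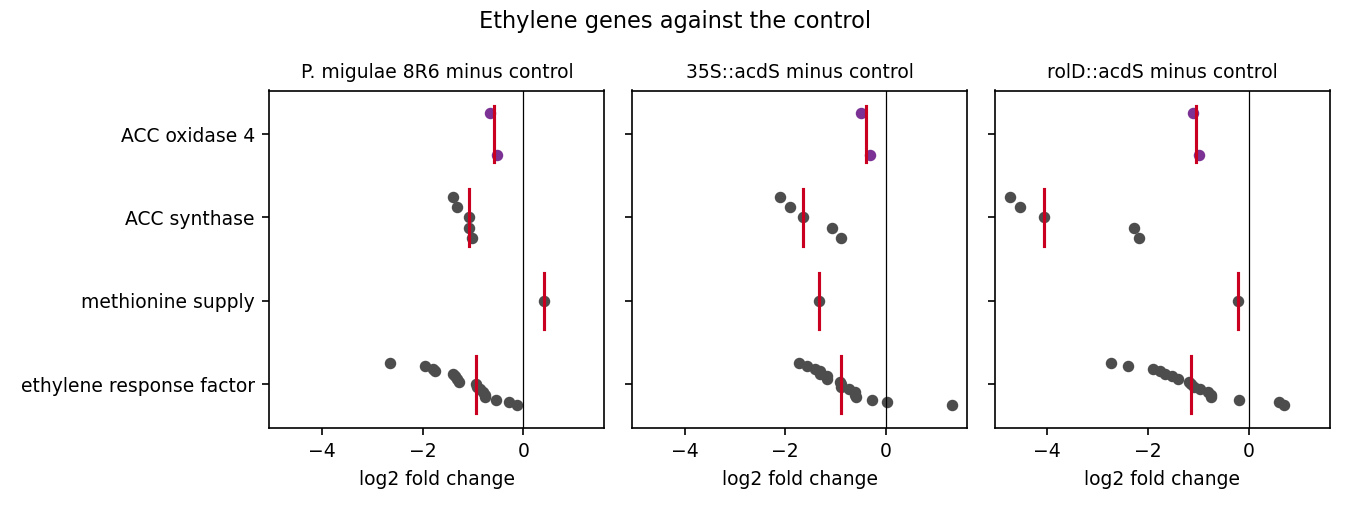
Log2 fold changes against the control (horizontal axis) of the 2 ACC oxidase 4 genes and of 23 other ethylene genes by role, with *P. migulae* 8R6 on the left, *35S::acdS* in the middle and *rolD::acdS* on the right, and a red line at the median of each role. ACC synthase genes reach the lowest values in *rolD::acdS*, where the *ACS7* values rest on 3 to 7 counts in the group, and all panels share the same control libraries.

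Genes beside the ACC oxidase 4 genes in the numbering of identifiers were examined up to 5 steps to each side, 20 in all, of which 15 were tested. Their log2 fold changes for *rolD::acdS* minus control had a median of -0.10, and 12 of the 15 lay between -0.41 and 0.84. The other 3 lay below -1. Csa14g006270 was at -1.20 but at a mean of only 0.57 CPM in the control. Csa14g006280 and Csa17g008290, each 2 steps after an ACC oxidase 4 gene, are annotated as receptor-like proteins (54 and 27), a class of membrane proteins of which many act in recognition of microbes or in development.

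Csa14g006280 had 9.42, 7.83 and 7.94 CPM in the control, 4.41, 8.84 and 1.90 CPM with *P. migulae* 8R6, 1.15, 5.08 and 3.81 CPM in *35S::acdS* and 4.41, 2.83 and 2.56 CPM in *rolD::acdS*. Csa17g008290 averaged 2.71, 1.84, 0.75 and 0.50 CPM in the same order. Against the control these genes were at -1.28 and -1.73 in *35S::acdS* and at -1.31 and -2.35 in *rolD::acdS* (log2), without passing the test. The study also lists both for *35S::acdS*. Their low libraries included replicate 3 with bacteria and replicate 1 of *35S::acdS*, as for ACC oxidase 4.

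Genes with the most similar profile were taken as those with the highest Pearson r of log2 CPM over the 12 libraries, among 56931 tested genes. For Csa14g006260 these were Csa13g055600 (r = 0.965), Csa01g024630, annotated as a DUF679 domain membrane protein (0.960), Csa06g023290 (0.956), Csa10g009220, annotated as a calmodulin-binding family protein (0.954), and then Csa17g008270 (0.952). For Csa17g008270 they were Csa09g079620, annotated as pathogenesis-related gene 5 (0.960), the cytochrome P450 gene Csa19g027880 (0.954), Csa14g006260 in the third place, Csa19g046310, annotated as a plant basic secretory protein (0.945), and Csa03g060660 (0.942). Each homeologue was thus among the 5 genes most like the other. In all, 77 genes exceeded r = 0.9 with Csa14g006260 and 25 with Csa17g008270. The libraries behind these values share their groups and normalization, so they describe likeness only.

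None of these genes was called by the quasi-likelihood test for *rolD::acdS* minus control, where 0% of tested genes were. Csa09g079620, of the family of pathogenesis-related proteins used as markers of defence, had 37.6 to 71.1 CPM in the control, 2.82 to 63.7 CPM with *P. migulae* 8R6, 3.15 to 44.8 CPM in *35S::acdS* and 4.84 to 12.2 CPM in *rolD::acdS*. Its groups with bacteria and with *35S::acdS* spanned the range from the *rolD::acdS* level or lower to the control level, as those of ACC oxidase 4 did.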

How the data were processed

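RNA from shoots was sequenced in 12 libraries, and per the labels and the study's methods the authors trimmed reads with Trimmomatic, mapped them with STAR to the NCBI *C. sativa* release 100 and counted them per gene. How reads fitting several homeologues were counted is not given in the sources used here. The deposited table is named for CPM but holds whole-number counts with unequal totals, so its values were analysed as counts. Groups and replicate numbers were taken from the sample labels. The 2 genes and the gene lists were chosen with earlier results of these data known.

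The 56932 genes (of 89418) that reached 0.5 CPM in 3 or more libraries, which held 99.81% to 99.85% of the counts, were tested with edgeR 4.0.16 in R 4.3.3, using TMM normalization, 1 quasi-likelihood fit of the 4 groups without covariates, and Benjamini-Hochberg adjustment. Genes counted as called had an adjusted p no higher than 0.05 and a log2 fold change beyond 1 in either direction. Standard errors were derived from the fold change and its F statistic (size of the change over the root of F). Log2 CPM used a prior count of 2. The study describes its replicates as biological, and whether plants were pooled is not given in the sources used here.

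Named genes were the ACC oxidase 4 genes, the listed ethylene and photosynthesis genes, genes within 5 identifier steps, and for each ACC oxidase 4 gene the 5 tested genes with the highest r. Names come from the study's tables. A search of the reference gene table for the identifiers found 0 matches, and no sequence, position or length is given. In none of the 12 pairs of libraries within a group did counts agree within sampling noise (chi-square per gene of 6.70 to 25.0). Deviations of same-numbered libraries correlated at 0.173, 0.179 and 0.187 between *P. migulae* 8R6 and *35S::acdS*. The main fit was unpaired, and values with replicate number as a block are given beside that comparison. Over all 18 pairs the correlation ranged from -0.346 to 0.297, with 9 over 0.1. Exact permutation tests were run in Python. They and the unblocked quasi-likelihood test were tried on simulated or set values with known answers. The replicate block, edgeR's exact test and DESeq2 were not. The tests are two-sided. Alternatives were RLE size factors, no filter, the replicate block, edgeR's exact test with a BCV of 2, DESeq2 1.42.0, each comparison fitted alone, and each library left out. Reads of the *acdS* transgene were not analysed here.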

Additional observations from a re-analysis of the deposited data

How the results depend on the processing

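Log2 fold changes of Csa14g006260 and Csa17g008270 kept their sign under the 18 alternatives in 5 comparisons. In the sixth, *P. migulae* 8R6 minus *35S::acdS*, 16 of 18 kept it and neither gene was called under any, with adjusted p from 0.531 to 1.0 and from 0.438 to 1.0. Leaving out 1 library gave -0.43 to 0.10 for Csa14g006260 and -0.54 to 0.16 for Csa17g008270 there, and -1.11 to -0.90 and -1.21 to -1.03 for *rolD::acdS* minus control. The ranges were -0.73 to -0.22 and -1.03 to -0.34 for *P. migulae* 8R6 minus control, -0.53 to -0.10 and -0.73 to -0.23 for *35S::acdS* minus control, -0.89 to -0.45 and -0.88 to -0.38 for *rolD::acdS* minus *35S::acdS*, and -0.76 to -0.25 and -0.78 to -0.08 for *rolD::acdS* minus *P. migulae* 8R6. For the ratio of the genes p was 0.357 to 0.937 without 1 library, and the replicate block and the share in place of the ratio also left it above 0.05. Without 1 library r between the genes was 0.811 to 0.945, and without the 2 farthest libraries 0.290. Numbers of genes called depended strongly on the setting, and the cause was not tested. For *P. migulae* 8R6 minus *35S::acdS* (29 genes) they were 358 without a filter, 222 with the replicate block, 0 with a BCV of 2, 998 with DESeq2 and 0 with its 6 libraries alone. For *P. migulae* 8R6 minus control (1) they were 20, 15, 0, 210 and 0 in the same order. For *rolD::acdS* minus *P. migulae* 8R6 (43) they were 147 without a filter, 0 with a BCV of 2, 474 with DESeq2 and 23 with its 6 libraries alone. For *rolD::acdS* minus control (0) DESeq2 gave 164 and the 6 libraries alone 3. DESeq2 gave 19 for *35S::acdS* minus control (0) and 107 for *rolD::acdS* minus *35S::acdS* (0). With 1 library left out, *P. migulae* 8R6 minus *35S::acdS* gave 0 to 873 genes: 0 without replicate 2 or 3 of *P. migulae* 8R6 or replicate 1 or 2 of *35S::acdS*, 6 and 124 without replicates 1 and 2 of *rolD::acdS*, 12 and 615 without replicates 1 and 2 of the control, 219 without replicate 3 of *35S::acdS* and 873 without replicate 1 of *P. migulae* 8R6. The ranges were 0 to 80 for *P. migulae* 8R6 minus control, 0 to 6 for *rolD::acdS* minus control (6 without *rolD::acdS* replicate 1), and 0 to 1 for *rolD::acdS* minus *35S::acdS* (1 without *rolD::acdS* replicate 3). For *rolD::acdS* minus *P. migulae* 8R6 the range was 0 to 157, with 0 in 6 of the 12 cases, in which the call of Csa03g046520 (*RAP2.6*) was therefore lost.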
